A study of Mus musculus with 4 samples.

Results

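Brush border digestive enzymes are proteins anchored on the microvilli of enterocytes, where they finish the breakdown of food at the surface of the gut. The genes described here are Sis, Lct, Treh, Anpep, Dpp4, Mme, Ace, Alpi and Enpp7, chosen by symbol as named enzymes of this membrane, and 9 of 9 had a single row among the 22632 genes of the deposited expression table. They were measured by RNA-seq in mouse small intestinal organoids, epithelial cultures grown from isolated crypts, 24 hours after seeding, with 1 library in each of 4 groups. Yap-/- organoids came from mice in which Cre under the Villin promoter, active in the gut epithelium, deleted both floxed copies of Yap (gene Yap1). Yap+/- organoids carried the same Villin-Cre with 1 floxed and 1 wild-type copy, so this control also lacked a working copy. YapTg organoids carried an inducible wild-type Yap transgene under a reverse tetracycline transactivator whose expression depends on Cre. They were grown with doxycycline, given in the labels as 1.5 mg/ml from the time of seeding, or without it. The driver of that Cre, and the strain, sex and age of the mice, are not given in the sources. All cultures were kept in Matrigel with Egf, noggin and R-spondin. No library with doxycycline but without the transgene was analysed here, so the drug and YAP cannot be told apart.

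Sis, Lct and Treh encode disaccharidases, which split the sugars sucrose and isomaltose, lactose, and trehalose. Anpep, Dpp4, Mme and Ace encode membrane peptidases, which shorten peptides before their uptake. Alpi encodes an intestinal alkaline phosphatase, known for removing phosphate from bacterial lipopolysaccharide, and Enpp7 an alkaline sphingomyelinase. In the intestine such enzymes are made mainly as enterocytes leave the crypt and mature, and Lct is the enzyme of the suckling period while Sis and Treh are known to come up around weaning in mice. YAP is a transcriptional co-activator held back by the Hippo pathway, and it acts through TEAD proteins on DNA.

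The windows around the start sites of 4 of the genes are shown because Sis had the highest level in 3 of 4 libraries, Lct and Treh share the disaccharidase role with it, and Alpi differed least with doxycycline. Each sequence runs 5′ to 3′ from 250 bases before to 50 after a RefSeq start (build GRCm38.p6), and capitals mark letters that match any of 4 motifs on either strand. The motifs were GGAATG for TEAD, CNATAAA for CDX, AGATAA for GATA and CAAAGTC for HNF4 factors.
Sis (chr3:72967814-72968113, minus strand): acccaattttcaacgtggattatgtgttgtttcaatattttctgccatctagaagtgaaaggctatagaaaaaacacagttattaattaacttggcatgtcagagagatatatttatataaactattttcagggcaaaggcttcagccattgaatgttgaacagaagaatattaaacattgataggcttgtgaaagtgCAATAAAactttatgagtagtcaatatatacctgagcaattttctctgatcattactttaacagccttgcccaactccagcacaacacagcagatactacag
Lct (chr1:128328269-128328568, minus strand): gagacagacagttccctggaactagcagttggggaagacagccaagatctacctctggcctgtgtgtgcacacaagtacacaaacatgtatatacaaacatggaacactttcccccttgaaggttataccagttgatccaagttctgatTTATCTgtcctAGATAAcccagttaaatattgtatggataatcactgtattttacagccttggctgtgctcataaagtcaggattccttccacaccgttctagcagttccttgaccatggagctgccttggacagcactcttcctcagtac
Treh (chr9:44672983-44673282, plus strand): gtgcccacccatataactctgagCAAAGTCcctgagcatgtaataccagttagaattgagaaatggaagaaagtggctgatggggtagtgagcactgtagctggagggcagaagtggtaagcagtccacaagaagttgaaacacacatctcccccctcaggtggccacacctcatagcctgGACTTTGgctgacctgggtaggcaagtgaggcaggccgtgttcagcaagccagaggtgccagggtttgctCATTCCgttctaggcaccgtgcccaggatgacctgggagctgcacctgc
Alpi (chr1:87101557-87101856, minus strand): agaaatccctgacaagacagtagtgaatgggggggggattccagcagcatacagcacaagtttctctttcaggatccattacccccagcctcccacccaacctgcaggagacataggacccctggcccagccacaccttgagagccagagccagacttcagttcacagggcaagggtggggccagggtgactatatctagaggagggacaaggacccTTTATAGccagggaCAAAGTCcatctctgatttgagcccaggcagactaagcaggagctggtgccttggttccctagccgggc

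The Sis window held 1 CDX match, and CDX2 is known to bind the sucrase-isomaltase promoter. The Lct window held 2 GATA matches on opposite strands. The Treh window held 2 HNF4 matches and 1 TEAD match, and the Alpi window 1 CDX and 1 HNF4 match, with no overlap between matches in these windows. RefSeq had 12 windows for the 9 genes. A match was present for TEAD in 3 of these 12 windows, for CDX in 3, for GATA in 3 and for HNF4 in 4. The windows with a match to 1 motif were each of a different gene. Over all 32851 mouse windows of the same length, 14.7% held the TEAD letters, 10.9% the CDX, 11.2% the GATA and 4.44% the HNF4 letters. These matches describe letters in a window and not binding.

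The library totals recovered from the deposited values were 67716822 reads for Yap-/-, 56926423 for Yap+/-, 75269003 for YapTg with doxycycline and 44934170 for YapTg without it. The libraries followed their labels for Yap1, at 3.35 RPKM in Yap-/- against 16.7 RPKM in Yap+/- and at 1039 RPKM with against 25.1 RPKM without doxycycline. RPKM are reads scaled by gene length and by library total, so levels can be compared between genes. With 1 library per group no difference has a replicate check and no test was made. The intervals are 95% intervals of counting error alone, and the fewest reads behind any value of the 9 genes were 359. Anpep, Dpp4, Mme and Ace are also known from immune, stromal or endothelial cells. The 11 immune markers summed to between 4.53 and 9.49 RPKM per library, with Cd52 the highest in each and Ptprc between 0.153 and 0.256 RPKM. The 9 stromal markers summed to between 0.489 and 3.61 RPKM, lowest with doxycycline, with Vim the highest of them in each library and Col3a1, Dcn and Des at 0 in every library. The 6 endothelial markers summed to at most 0.233 RPKM, with Cdh5, Flt1 and Emcn at 0 in every library.

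All 9 genes were expressed in every library, from 2.33 to 790 RPKM. Their summed level was 1619 RPKM in Yap-/-, 1312 RPKM in Yap+/-, 608.0 RPKM in YapTg with doxycycline and 1300.03 RPKM in YapTg without it. That was 0.535%, 0.476%, 0.238% and 0.468% of the RPKM of all genes. The induced library thus had the lowest sum, and the Yap-/- library the highest.

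**Figure D1:**
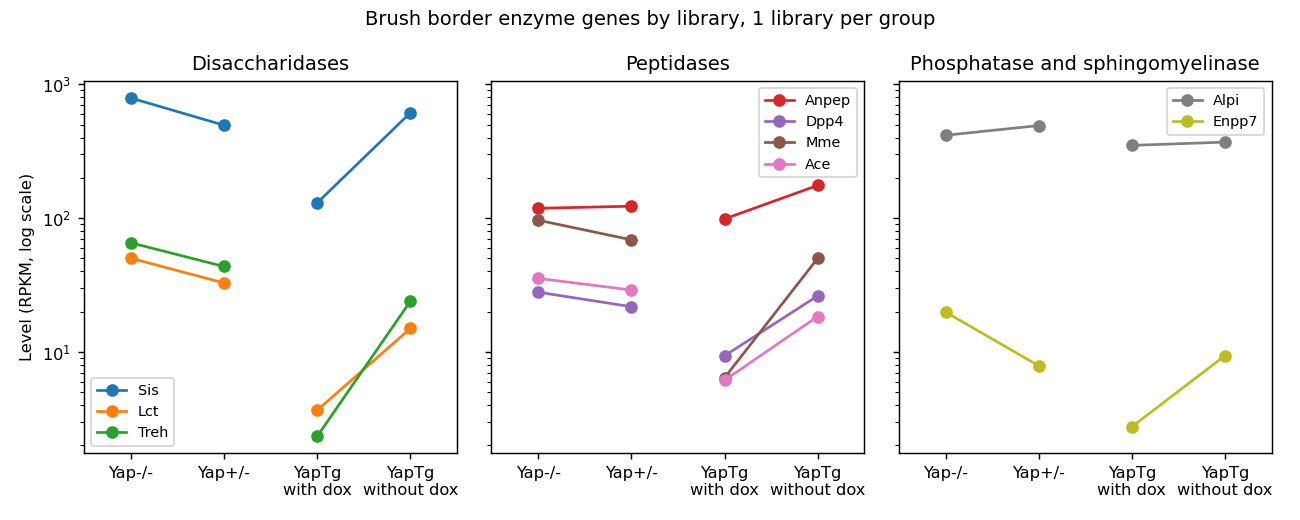
Level of each enzyme gene in RPKM on a log axis, by library (x axis, 1 library per group), in 3 panels by enzyme class, where a line joins the libraries of 1 comparison. In the induced YapTg library Treh, Lct and Enpp7 lie between 2.33 and 3.66 RPKM, while Alpi stays at 349 RPKM.

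Induction of the transgene asks how an excess of YAP acts on enzyme transcripts. With doxycycline, 9 of 9 enzyme genes had lower levels and 7 were at least 2-fold lower. In this pair 11108 genes had 1 RPKM or more on either side, and the share past 2-fold was 5.80% downward and 5.85% upward. A gene counts as 2-fold apart here on the log2 scale of RPKM plus 1, on which the median of the 9 genes was -1.47 and that of all genes -0.04. Counting error alone was exceeded by 9 of 9 genes, all lower, and by 45.0% of all genes downward and 36.5% upward. In bulk samples, fewer cells of a type and less RNA per cell cannot be told apart. The disaccharidases as a class summed to 136 RPKM with against 651 RPKM without doxycycline, 4.80-fold lower. The 4 peptidases summed to 120 RPKM with against 270.1 RPKM without, 2.25-fold lower. Sis, at 130 RPKM with and 612 RPKM without, made up most of the disaccharidase sum. Anpep, at 98.4 RPKM with and 176 RPKM without, made up most of the peptidase sum.

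Treh, trehalase, had the greatest difference of the 9. It was at 2.33 RPKM with and 23.8 RPKM without doxycycline, 10.2-fold lower (95% interval 9.15 to 11.5), from 359 and 2194 reads. Only 27 of the 11108 genes had a lower log2 ratio. Mme, neprilysin, which cuts small peptides, came next at 6.39 RPKM with and 50.0 RPKM without doxycycline, 7.83-fold lower (7.47 to 8.21). Trehalase and neprilysin lie in different enzyme classes, so the ratios were not ordered by class.

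Sis, sucrase-isomaltase, had the largest difference in RPKM of the 9. It was at 130 RPKM with and 612 RPKM without doxycycline, 4.72-fold lower (4.68 to 4.76). Lct, lactase, was at 3.66 RPKM with and 14.9 RPKM without, 4.09-fold lower (3.87 to 4.32). Enpp7 was at 2.75 RPKM with and 9.38 RPKM without, 3.40-fold lower (3.00 to 3.87). The intervals of Sis and Lct do not overlap, and those of Lct and Enpp7 meet at their ends.

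The peptidases other than Mme differed less. Ace, angiotensin-converting enzyme, was at 6.12 RPKM with and 18.4 RPKM without doxycycline, 3.00-fold lower (2.85 to 3.15). Dpp4, which removes dipeptides from peptide ends, was at 9.34 RPKM with and 26.2 RPKM without, 2.81-fold lower (2.70 to 2.91). Anpep, aminopeptidase N, stayed high, at 98.4 RPKM with and 176 RPKM without, 1.78-fold lower (1.76 to 1.81) and thus under the 2-fold line. Anpep kept more of its level than Ace, Dpp4 and Mme.

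Alpi stood apart from the other 8. It was at 349 RPKM with and 370 RPKM without doxycycline, 1.06-fold lower (1.05 to 1.07), and 46.4% of all genes had a lower log2 ratio. Akp3, the duodenal alkaline phosphatase gene beside it in the same family, was at 227 RPKM with and 212 RPKM without. How the authors' counting split reads between these close relatives is not stated in the labels, so their separate values are uncertain. Their sum was 577 RPKM with and 582 RPKM without. The sum does not depend on that split, but it does not settle the level of Alpi alone. Reads counted for neither gene would be missing from it. The other 8 genes summed to 259 RPKM with and 930.3 RPKM without doxycycline, 3.60-fold lower.

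**Figure D2:**
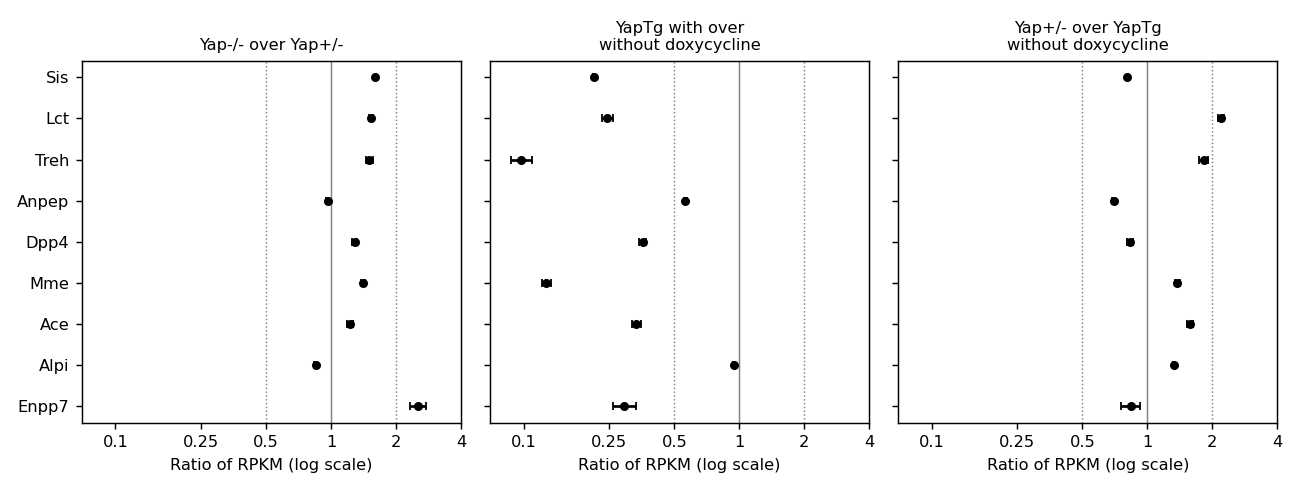
Ratio of RPKM for each enzyme gene on a log axis in the 3 comparisons, with bars for the 95% counting interval, a solid line at 1 and dotted lines at 2-fold either way. With doxycycline 7 of 9 points lie left of the lower dotted line and Alpi at 0.945 lies next to the solid line.

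Loss of Yap asks which transcripts the gene supports. In Yap-/- organoids 7 of 9 enzyme genes had higher levels and 2 lower ones, of which 1 passed 2-fold upward and 0 downward. Over all 10710 genes at the floor the shares past 2-fold were 0.336% upward and 0.570% downward. By counting error alone 7 of the 9 were higher and 2 lower, beside 38.7% and 15.8% of all genes. The median log2 ratio was 0.48 for the 9 genes and 0.05 for all genes. Since no test was possible, differences of this size are values of 2 libraries and not of 2 genotypes. The disaccharidases summed to 906 RPKM in Yap-/- against 571 RPKM in Yap+/-, 1.59-fold higher, and the peptidases to 278 RPKM against 242 RPKM.

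The 3 disaccharidase genes were higher by nearly the same factor. Sis had 790 RPKM in Yap-/- against 495 RPKM in Yap+/-, 1.60-fold higher (95% interval 1.59 to 1.61). Lct had 50.1 RPKM in Yap-/- against 32.7 RPKM in Yap+/-, 1.53-fold higher (1.50 to 1.57). Treh had 65.4 RPKM in Yap-/- against 43.5 RPKM in Yap+/-, 1.50-fold higher (1.45 to 1.56). The Lct and Treh intervals overlap each other. Treh lies on mouse chromosome 9, as does Yap1, whose locus was altered in these mice. Whether the shared chromosome bears on the Treh level was not tested.

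Enpp7 was the gene past 2-fold. It had 19.8 RPKM in Yap-/- against 7.86 RPKM in Yap+/-, 2.52-fold higher (2.33 to 2.74), with 11 of the 10710 genes at a higher log2 ratio. The Yap-/- level was also above both YapTg levels of 2.75 and 9.38 RPKM. Among the peptidases, Mme had 96.4 RPKM in Yap-/- against 68.8 RPKM in Yap+/-, 1.40-fold higher (1.38 to 1.43). Dpp4 was 1.28-fold higher (1.25 to 1.32), at 27.9 RPKM in Yap-/- against 21.7 RPKM in Yap+/-. Ace was 1.22-fold higher (1.19 to 1.26), at 35.4 RPKM in Yap-/- against 29.0 RPKM in Yap+/-.

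Anpep and Alpi, the genes that differed least with doxycycline, were the 2 with lower levels in Yap-/- organoids. Anpep had 118 RPKM in Yap-/- against 123 RPKM in Yap+/-, a ratio of 0.964 (0.949 to 0.980). Alpi had 416 RPKM in Yap-/- against 491 RPKM in Yap+/-, a ratio of 0.846 (0.837 to 0.855). The related Akp3 had 156 RPKM in Yap-/- against 298 RPKM in Yap+/-, 1.91-fold lower. The 2 phosphatases together were at 571 RPKM in Yap-/- against 789 RPKM in Yap+/-, 1.38-fold lower.

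**Figure D3:**
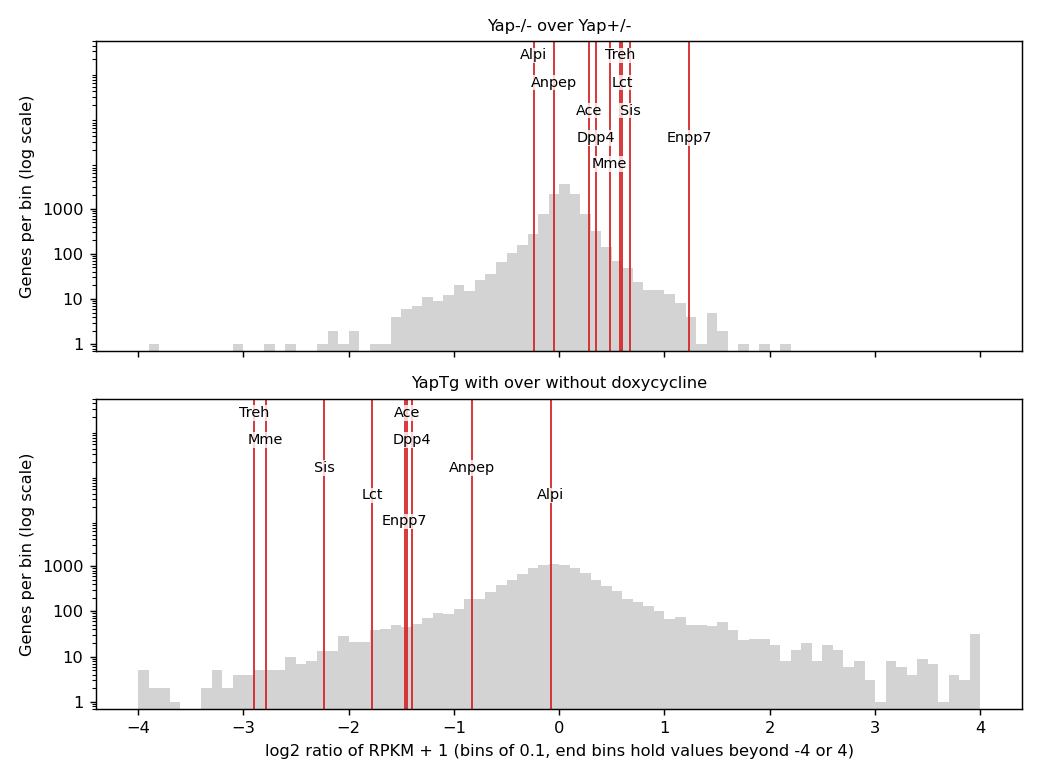
Number of genes per bin (log axis) by log2 ratio of RPKM plus 1, for Yap-/- over Yap+/- and for YapTg with over without doxycycline, with red lines at the 9 enzyme genes. The median of the 9 lies at 0.48 in the upper panel and at -1.47 in the lower panel, where Treh and Mme lie furthest left.

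The control libraries of the 2 lines, Yap+/- and YapTg without doxycycline, differed from each other by amounts like those seen with loss of Yap. Each shares a library with a comparison above, so these ratios are given beside the others and not as separate support. Lct was 2.19-fold higher (2.11 to 2.27), at 32.7 RPKM in Yap+/- and 14.9 RPKM in YapTg without doxycycline. Treh was 1.82-fold higher (1.73 to 1.92), Ace 1.58-fold (1.52 to 1.64), Mme 1.37-fold (1.34 to 1.41) and Alpi 1.33-fold (1.31 to 1.35). Anpep was 1.43-fold lower, Sis 1.24-fold, Dpp4 1.21-fold and Enpp7 1.19-fold lower in Yap+/-. Past 2-fold were 1 of 9 genes upward and 0 downward, where 1.11% and 0.726% of 10883 genes were. By counting error alone 5 were higher and 4 lower, beside 23.1% and 51.5% of all genes. Median-ratio scaling moved the median of all genes in this pair from -0.11 to 0.02 and the 9-gene median from 0.41 to 0.56. The genes 2-fold higher and lower numbered 121 and 79 as deposited and 173 and 60 after that scaling.

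The order of the levels was nearly the same in the 3 libraries without induction. Sis, Alpi, Anpep and Mme were the top 4 in Yap-/-, Yap+/- and YapTg without doxycycline, and Enpp7 was the lowest. In Yap+/-, Sis and Alpi at 495 and 491 RPKM did not differ beyond counting error (ratio 1.01, 0.997 to 1.02). With doxycycline Alpi was first, 2.69-fold above Sis, followed by Anpep, and Treh was last. Mme and Ace, at 6.39 and 6.12 RPKM, did not differ beyond counting error in that library (ratio 1.04, 0.984 to 1.11).

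The level of Sis relative to Lct was closer within a line than between the lines. Sis was 15.8 times Lct in Yap-/- (15.6 to 16.0) and 15.1 times in Yap+/- (14.8 to 15.4). It was 35.5 times Lct in YapTg with doxycycline (33.8 to 37.2) and 41.0 times without (39.7 to 42.2). The level of Treh relative to Lct was 1.30 in Yap-/- and 1.33 in Yap+/-. It was 0.637 with and 1.60 without doxycycline. With 1 culture per group, line and culture cannot be told apart in this gap.

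The enzymes parted from the structural proteins of the microvillus with doxycycline. Of 16 microvillus genes 0 were lower and 3 higher by 2-fold or more with doxycycline, beside 5.80% and 5.85% of all genes. Their median log2 ratio was 0.34. Vil1, the actin bundler villin, was at 208 RPKM with and 222 RPKM without. Relative to Vil1, Sis was at 0.623 with (0.615 to 0.630) and 2.76 without doxycycline (2.73 to 2.79), while Alpi was at 1.68 and 1.67. Tm4sf4, a membrane protein that is not itself a structural component, was 4.60-fold higher. Pdzk1, a scaffold beneath the membrane, was 2.81-fold higher, and Ezr, the membrane-actin linker ezrin, 2.89-fold higher at 279 RPKM with and 96.4 RPKM without. With loss of Yap the list had 0 genes past 2-fold and a median of 0.04, with Tm4sf4 1.56-fold and Ezr 1.25-fold lower in Yap-/-. Between the control libraries it also had 0, with a median of 0.05, Tm4sf4 at a ratio of 1.98 and Myo7b, a brush border myosin, 1.56-fold lower in Yap+/-. Vil1 and Pdzk1 were named after their values were seen, and no test of the gap between the lists was possible.

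**Figure D4:**
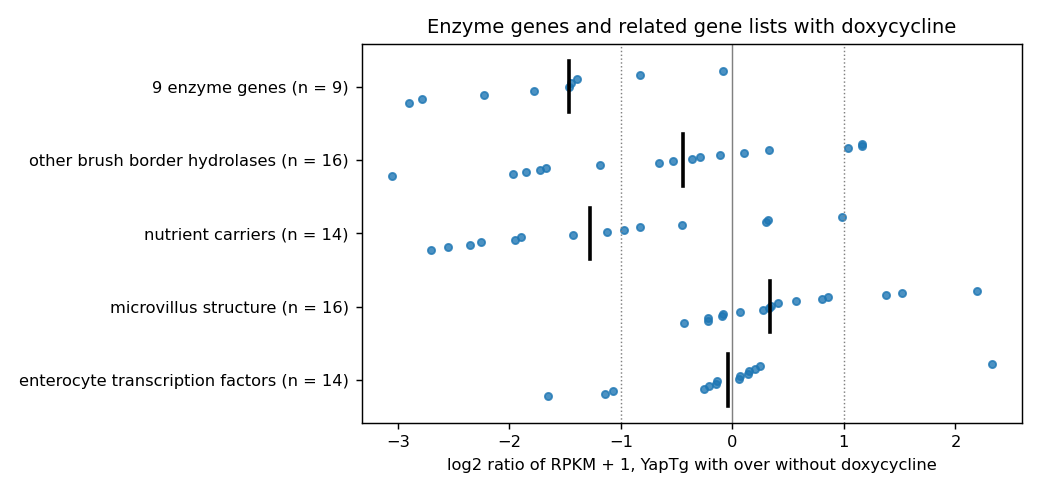
log2 ratio of RPKM plus 1 with over without doxycycline for each gene at the floor of 1 RPKM (dots) in 5 lists, with a black bar at the list median and dotted lines at 2-fold. The bars lie at -1.47 for the enzyme genes and -1.27 for nutrient carriers, against 0.34 for microvillus structure and -0.04 for transcription factors.

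Most of the listed carriers of sugars, peptides and amino acids were lower with doxycycline as well. Of 14 nutrient carrier genes 8 were at least 2-fold lower and 0 higher, beside 5.80% and 5.85% of all genes. Log2 ratios were below 0 for 11 of them and above 0 for 3, with a median of -1.27. Slc2a5, the fructose carrier, was at 4.00 RPKM with and 31.6 RPKM without, 7.90-fold lower. Slc6a19, a neutral amino acid carrier, was 6.43-fold lower at 8.38 RPKM with and 53.9 RPKM without. With loss of Yap 13 of 14 carriers were higher, 0 of them 2-fold, with a median of 0.25. Slc2a5 was again furthest, 1.84-fold higher at 64.1 RPKM in Yap-/- against 34.8 RPKM in Yap+/-, and Slc36a1, a proton-coupled amino acid carrier, had a log2 ratio of 0.77. Between the control libraries the carriers had 0 past 2-fold and a median of 0.05, with Slc7a7 and Slc15a1 furthest at log2 ratios of 0.44 and 0.42.

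Other brush border hydrolases were mixed. Of 21 listed genes 16 reached the floor in the YapTg pair, where the median was -0.45. There 6 were lower and 3 higher by 2-fold or more, beside 5.80% and 5.85% of all genes. Ggt1, which cuts gamma-glutamyl bonds of glutathione, was 10.1-fold lower, at 4.09 RPKM with and 41.4 RPKM without. Mep1a, a meprin metalloprotease subunit, was 7.03-fold lower, at 0.928 RPKM with and 6.52 RPKM without. Mgam, maltase-glucoamylase and the close relative of Sis, was 1.08-fold lower, at 218 RPKM with and 235 RPKM without, so Mgam and Sis differed unequally. With loss of Yap 1 of 15 was at least 2-fold lower and 0 higher, beside 0.570% and 0.336% of all genes, with a median of 0.09. That gene was Xpnpep2, a membrane aminopeptidase P, at 4.28 RPKM in Yap-/- against 11.1 RPKM in Yap+/-, and Akp3 came next. Between the control libraries 2 were 2-fold higher and 2 lower, beside 1.11% and 0.726% of all genes, with a median of 0.21. Xpnpep2 was 5.13-fold and Asah2, neutral ceramidase, 2.69-fold higher in Yap+/-. Mgam was named after its values were seen.

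Transcription factors known to act on enterocyte genes were mixed with doxycycline. Of 14 at the floor 3 were lower and 1 higher by 2-fold or more, beside 5.80% and 5.85% of all genes, and the median was -0.04. Hnf4g, a nuclear receptor of mature enterocytes, was 3.25-fold lower at 20.6 RPKM with and 66.9 RPKM without, and Klf4, a differentiation factor, 5.54-fold higher at 43.8 RPKM with and 7.90 RPKM without. Cdx1, an intestinal homeobox factor, was 2.13-fold lower at 41.9 RPKM with and 89.2 RPKM without, and Creb3l3, a membrane-bound factor of lipid metabolism, 2.29-fold lower. Cdx2 was at 69.5 RPKM with and 62.5 RPKM without, and Hnf4a at 196 and 187 RPKM. With loss of Yap 1 was lower and 0 higher, beside 0.570% and 0.336% of all genes, with a median of 0.08. That gene was Isx, another intestinal homeobox factor, at 0.429 RPKM in Yap-/- against 10.6 RPKM in Yap+/-, and Klf4 came next, 1.30-fold lower in Yap-/-. Between the control libraries the median was 0.02, with Isx 6.81-fold lower and Creb3l3 1.89-fold higher in Yap+/-. Cdx1, Cdx2, Hnf4a and, for the YapTg pair, Creb3l3 were named after their values were seen.

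Markers of several cell types were lower with doxycycline, and their part in the enzyme levels was not tested. For the counts that follow, the shares of all genes past 2-fold were 5.80% downward and 5.85% upward. The 12 enterocyte markers, which include 5 of the 9 genes, summed to 1599 RPKM with and 4902 RPKM without, 7 of 12 at least 2-fold lower. The 8 goblet markers summed to 678 RPKM with and 2656 RPKM without, 7 of 8 lower. The 5 Paneth markers were at 3362 and 5509 RPKM with 1 lower, and the 4 stem cell at 46.8 and 502 RPKM with 3 lower. The 6 enteroendocrine markers were at 73.7 and 143 RPKM, with 3 of the 5 at the floor lower. The 4 tuft markers were at 6.35 and 5.41 RPKM, with 0 of the 2 at the floor past 2-fold. Of these 2, Avil was at 4.12 RPKM with and 2.21 RPKM without, and Sh2d6 at 1.05 and 1.77 RPKM. In Yap-/- against Yap+/- the enterocyte markers summed to 10910.2 and 7832 RPKM, goblet to 3430.0 and 2609 RPKM, and Paneth to 4760 and 2415 RPKM. There, enteroendocrine markers summed to 293 and 255 RPKM, stem cell to 564 and 298 RPKM, and tuft to 19.4 and 13.3 RPKM. Sums were higher in Yap-/- for each of these 6 lists. The RPKM of all genes summed to 302835 in Yap-/- and 275603 in Yap+/-. Single genes weighed heavily, with Fabp1 at 5766 and 3457 RPKM and Olfm4 at 501 and 244 RPKM. Log2 ratios were below 0 for 3 of 12 enterocyte, 1 of 8 goblet and 1 of 6 enteroendocrine markers. They were below 0 for 0 of the Paneth, stem cell and tuft markers.

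The genes whose pattern over the 4 libraries lay nearest to the mean of the 9 enzyme genes were Gpr155, Dpyd, Mical1, Rnase4 and Tff3, of 7318 ranked. The measure was the distance between log2 levels centred on each gene's own mean, which was 0.07 for Gpr155 and 0.11 for Tff3. Gpr155 was at 8.46 RPKM in Yap-/-, 5.60 RPKM in Yap+/-, 0.880 RPKM with and 4.82 RPKM without doxycycline. Tff3, a goblet cell peptide, was at 1329, 1051, 271 and 918 RPKM in the same groups. The enzyme genes themselves lay between 0.28 for Ace and 1.57 for Treh from that mean. Treh, Anpep at 1.56 and Alpi at 1.54 were furthest, Treh with the widest range over the libraries and Anpep and Alpi with the narrowest.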

How the data were processed

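RNA from 4 organoid cultures was sequenced, 1 library per group, and grouped by genotype and sample name. Tools in the submitters' processing notes are TopHat 1.4.1, CASAVA 1.8 and FastQC, with build mm9. No source states the read counter, strand setting or annotation. The deposited values are RPKM by the authors, a unit inferred from the values, and 0 columns were left unused. Library totals were solved from GENCODE M21 exon lengths and came within 0.00738 of whole numbers. Reads per gene are those that a whole gene length makes whole (within 0.01) in every library, found for 17378 of 17378 genes above 0. The GENCODE length was taken where it did so (6935 genes), otherwise the shortest. For Mme multiples of its reads would also do, and the fewest were used.

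Log2 ratios used RPKM plus 1. A gene counted as higher or lower at 2-fold with the higher library at 1 RPKM or more, a floor that 9 of 9 genes passed in each comparison. Ratios in the text are of RPKM, with exact conditional binomial 95% intervals (scipy 1.17.1). These cover counting error only, since each group has 1 library. They treat reads as independent, although PCR copies are not independent molecules, so they may be too narrow. There were no replicates and no p-values. The steps were tested on simulated data. Symbols follow the table, and 20750 identifiers (91.7%) had a current name. Promoter windows are from RefSeq (GRCm38.p6), another build than mm9, and were matched by symbol for 9 of 9 genes.

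The genes, lists and comparisons were chosen with earlier results of these data known. Named genes are the 9 enzymes, the 2 members of each further list furthest from a log2 ratio of 0 at the floor, and the 5 nearest in pattern among genes at 5 RPKM or more, without predicted genes. The marker lists are given by sums. Some items of these lists are not reported here and were left out of the list counts. Lists were 6 of related genes and 9 of cell type markers. Alternatives varied the pseudocount (0.1 and 5), the floor (none and 5 RPKM), the scaling of libraries (upper-quartile and median-ratio) and the call (4-fold, or a counting interval that excludes 1).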

Additional observations from a re-analysis of the deposited data

How the results depend on the processing

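Each of the 9 enzyme genes kept the sign of its log2 ratio in each comparison under both pseudocounts and both scalings (36 of 36 values per comparison). A pseudocount cannot change a sign, so only the scalings could have done so. Median-ratio scaling shifted the log2 ratios of all genes by about -0.045, 0.046 and 0.154 in the 3 comparisons, so this count is a weak check. With doxycycline 7 enzyme genes were at least 2-fold lower. This number became 3 at a 4-fold threshold, beside 121 of all 11108 genes lower and 191 higher. It became 6 with a pseudocount of 5, where Enpp7 had a log2 ratio of -0.89, beside 323 of all genes lower and 350 higher. The median of -1.47 became -1.73 with a pseudocount of 0.1 and -1.12 with a pseudocount of 5. It was -1.78 without Alpi and Enpp7, an alternative chosen after seeing the data. For Yap-/- over Yap+/-, the 1 gene at least 2-fold higher became 0 with a pseudocount of 5 and 0 at 4-fold. Of all 10710 genes, 20 and 1 were higher at these settings. There, 7 higher and 2 lower had a counting interval that excludes 1, beside 38.7% and 15.8% of all genes. The median of 0.48 was 0.44 under median-ratio and 0.44 under upper-quartile scaling. For Yap+/- over YapTg without doxycycline, the 1 gene higher became 0 with a pseudocount of 5 and 0 at 4-fold. Of all 10883 genes, 56 and 15 were higher at these settings. In this pair 5 higher and 4 lower had an interval that excludes 1, beside 23.1% and 51.5% of all genes. The 9-gene median of 0.41 in this pair was 0.56 and 0.52 under the 2 scalings. The causes of these shifts were not tested. No paired analysis was possible because each group has 1 library. The intervals cover counting error alone, and no value here has a spread between replicates.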

Other observations

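Genes of suckling-type and of adult-type enterocytes other than the 9 enzymes were followed as lists. With doxycycline the shares of all genes past 2-fold were 5.80% downward and 5.85% upward. Of 5 adult-type genes 3 were at least 2-fold lower and 0 higher with doxycycline, with a median log2 ratio of -1.70. Log2 ratios were below 0 for 3 of these 5 and above 0 for 2, so the list was not lower throughout. Arg2, an arginase, was at 13.6 RPKM with and 140 RPKM without doxycycline, 10.3-fold lower, and Apoa4, an apolipoprotein of fat uptake, was 4.44-fold lower at 79.6 RPKM with and 353 RPKM without. The suckling-type list had 6 genes at the floor, 2 of them lower by 2-fold or more, and its median was -0.35. Its log2 ratios were below 0 for 4 genes and above 0 for 2. Fcgrt, the neonatal Fc receptor, was 3.89-fold lower at 2.38 RPKM with and 9.27 RPKM without, and Amn, which works in vitamin B12 uptake, 2.24-fold lower. The names suckling-type and adult-type come from the gut of young mice and are background here. The suckling-type genes Glb1 and Dab2 had no single row under their names.

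With loss of Yap neither list had a gene past 2-fold, and the medians were 0.16 for adult-type and 0.08 for suckling-type genes. Arg2 was 1.26-fold and Otc, a urea cycle enzyme, 1.15-fold higher in Yap-/-, while Amn was 1.42-fold higher and Clic5 had a log2 ratio of 0.23. In Yap+/- over YapTg without doxycycline the medians were 0.28 and 0.22. Apoa4 was the 1 adult-type gene past 2-fold there, with a log2 ratio of 1.22, where 1.11% of all genes were 2-fold higher. Arg2 had a log2 ratio of 0.46, Amn 0.56 and Lamp1 0.32.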
